A study of Mus musculus with 6 samples.

Results

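The cholesterol genes described here are 30 transcripts of cholesterol synthesis, its control by SREBP, cholesterol transport inside the cell, and LXR-driven efflux. They were chosen by name, before any filter, from the 21853 genes of the deposited table, and all 30 were in it. The list holds 19 enzymes of synthesis, 5 genes of SREBP control (Srebf1, Srebf2, Scap, Insig1 and Insig2), 3 of transport (Stard4, Npc1 and Npc2), and 3 that LXR drives (Abca1, Abcg1 and Mylip). The cells were fibroblasts grown from C57BL/6J mouse embryos, with an age of 12 days in the labels and with xCT knocked out in every library. xCT, the product of Slc7a11, carries cystine into the cell for glutathione synthesis. Of the 6 libraries, 3 came from cells given red clover extract (RCE) and 3, the control, from cells given water. The dose, the time of exposure, the serum in the medium and whether the cells were 1 line are not given in the sources used here.

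Cells make cholesterol from acetyl-CoA through mevalonate, farnesyl pyrophosphate, squalene and lanosterol. The rate is set largely by SREBP2, the product of Srebf2, a transcription factor held in the endoplasmic reticulum by SCAP and the INSIG proteins. When membrane cholesterol is low, SCAP escorts SREBP to the Golgi, where it is cut, and the freed part enters the nucleus and binds sterol regulatory elements and E-boxes, usually beside NF-Y and Sp1. When sterols are plentiful, oxysterols keep SCAP bound to INSIG and also activate LXR, a nuclear receptor whose targets export cholesterol (ABCA1, ABCG1) or mark lipoprotein receptors for degradation (MYLIP, also called IDOL).

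Promoter sequences are shown for 3 members of different roles that fell (Hmgcs1, Hsd17b7 and Insig1) and for the 2 that rose (Abca1 and Mylip), to set the letters of SREBP and LXR sites beside opposite changes. They are RefSeq sequences on GRCm38.p6, from the 250 bases before the annotated start and less any base inside a GENCODE M21 exon, written 5′ to 3′ on the strand of the gene. Capitals mark exact matches to the sterol regulatory element TCACNCCAC, the E-box CACGTG and the NF-Y site CCAAT, on either strand (ATTGG is CCAAT read on the other strand). Hmgcs1 lies at chr13:119690101-119690350, plus strand; Hsd17b7 at chr1:169969242-169969408, minus strand; Insig1 at chr5:28071162-28071362, plus strand. Abca1 lies at chr4:53159896-53160145, minus strand and Mylip at chr13:45389492-45389741, plus strand.
Hmgcs1: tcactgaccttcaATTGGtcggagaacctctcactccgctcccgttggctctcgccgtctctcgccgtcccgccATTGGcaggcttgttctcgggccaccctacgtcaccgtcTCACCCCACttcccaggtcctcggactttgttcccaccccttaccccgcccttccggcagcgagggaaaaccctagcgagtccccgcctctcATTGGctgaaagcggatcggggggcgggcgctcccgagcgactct
Hsd17b7: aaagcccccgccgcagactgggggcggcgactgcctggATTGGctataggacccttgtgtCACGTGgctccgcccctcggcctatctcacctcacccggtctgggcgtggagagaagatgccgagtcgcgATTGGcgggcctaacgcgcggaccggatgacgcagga
Insig1: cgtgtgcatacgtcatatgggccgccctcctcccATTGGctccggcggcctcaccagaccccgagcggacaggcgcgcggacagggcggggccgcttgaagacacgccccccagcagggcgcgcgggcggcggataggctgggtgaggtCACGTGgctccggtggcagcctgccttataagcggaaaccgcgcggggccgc
Abca1: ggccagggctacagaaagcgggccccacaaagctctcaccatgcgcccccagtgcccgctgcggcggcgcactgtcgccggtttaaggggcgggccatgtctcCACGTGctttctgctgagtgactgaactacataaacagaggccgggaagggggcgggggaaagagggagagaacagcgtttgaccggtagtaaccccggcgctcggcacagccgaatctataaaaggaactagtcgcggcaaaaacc
Mylip: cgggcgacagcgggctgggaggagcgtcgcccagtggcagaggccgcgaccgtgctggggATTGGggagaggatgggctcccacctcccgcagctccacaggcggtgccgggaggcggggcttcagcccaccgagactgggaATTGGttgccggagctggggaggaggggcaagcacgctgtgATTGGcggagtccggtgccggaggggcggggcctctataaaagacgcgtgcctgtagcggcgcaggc

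The exact letters TCACNCCAC of the sterol regulatory element stood in the Hmgcs1 promoter as TCACCCCAC, 137 to 129 bases before the start. Those letters were in no other of the 32 promoters that RefSeq gave for 24 of the 30 members. The share is 3.12% of these promoters, against 1.05% of all 32851 promoters in the table. No promoter was given for Fdps, Sqle, Fdft1, Npc1, Stard4 and Abcg1, so their windows were not searched. Of these, Fdps, Sqle and Fdft1 were called lower in the comparison below. The E-box stood in 6 of 32 (18.8%, against 6.02% of all), among them Hsd17b7, 143 to 138 bases before the start, Insig1, 101 to 96 bases before it, and Abca1, 147 to 142 bases before it. The others were those of Sc5d, Dhcr7 and Scap, of which Scap did not pass the threshold of the comparison below. Mvk, Mvd, Idi1, Lss, Cyp51, Msmo1, Nsdhl and Srebf2 fell with no exact match to TCACNCCAC or CACGTG in these windows. Only these exact letters were searched, so a sterol regulatory element spelled otherwise would have been missed. The NF-Y letters stood in 22 of 32 (68.8%, against 33.8%) and those of Sp1, GGGCGG on either strand, in 25 of 32 (78.1%, against 32.7%). Among promoters of the genes tested for expression these shares were 0.956% for the sterol regulatory element, 8.59% for the E-box, 35.1% for NF-Y and 59.9% for Sp1. A strict spelling of the LXR site, the letters GGTCA, then NNNN, then AGGTCA, stood in no promoter of a member and in 0.0213% of all. It is too strict to find known LXR sites that depart from it. A looser spelling, GGTNA, then NNNN, then NGGTCA, was chosen after the Abca1 promoter was seen to hold it, so its counts are a description only. It stood in 2 of 32 promoters of members (6.25%, against 0.177% of all), that of Abca1, as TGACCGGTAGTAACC on the other strand, 67 to 53 bases before the start, and 1 of those of Srebf1, as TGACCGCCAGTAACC, 182 to 168 bases before the start. Matches describe the letters of a window, in which none of the searched motifs overlapped another in the 5 promoters shown, and say nothing about binding.

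With RCE most of the synthesis pathway fell, Insig1 and Srebf2 fell with it, and Abca1 and Mylip rose. Levels are the FPKM that the authors deposited, a unit that divides fragments by transcript length and by library depth. Differences are RCE minus control on the log2(FPKM + 1) scale from limma, a linear model fitted here to the 10870 genes that averaged 1 FPKM or more over the 6 libraries, with Benjamini-Hochberg adjustment over all of them and a threshold of 0.05. Of the 30 members 29 passed that filter, all but Abcg1. Of these, 16 were lower and 2 higher with RCE, where 24.3% of all genes tested were called, 6.77% lower and 17.6% higher. Their median change was -0.22, against 0.077 over all genes tested, and 24 of 29 were negative, against 29.8% of all genes. The baseline depends on scaling: with median-of-ratios scaling the median of the members was -0.30, against 0.0002 over all genes, of which 49.9% were negative, and with quantile normalization it was -0.31, against 0.025, with 42.6% negative. The groups did not overlap for 17 members that were lower with RCE and 2 that were higher, where 10.9% and 31.2% of all genes tested had such a separation. Leaving out control replicate 3 cut the 16 members called lower to 8, and leaving out control replicate 2 cut them to 9. Leaving out RCE replicate 2 cut them to 10, and RCE replicate 3 to 9. In the same order, the genes called lower among all 10870 tested fell from 736 to 444, 446, 394 and 461. Without control replicate 1 or RCE replicate 1, 13 members were lower, where 637 and 734 of all genes were. Without replicate 1 of both groups, which stood apart from the other libraries, 22 members were lower and 2 higher, where that fit called 53.8% of all genes tested, 13.6% lower and 40.1% higher.

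**Figure D1:**
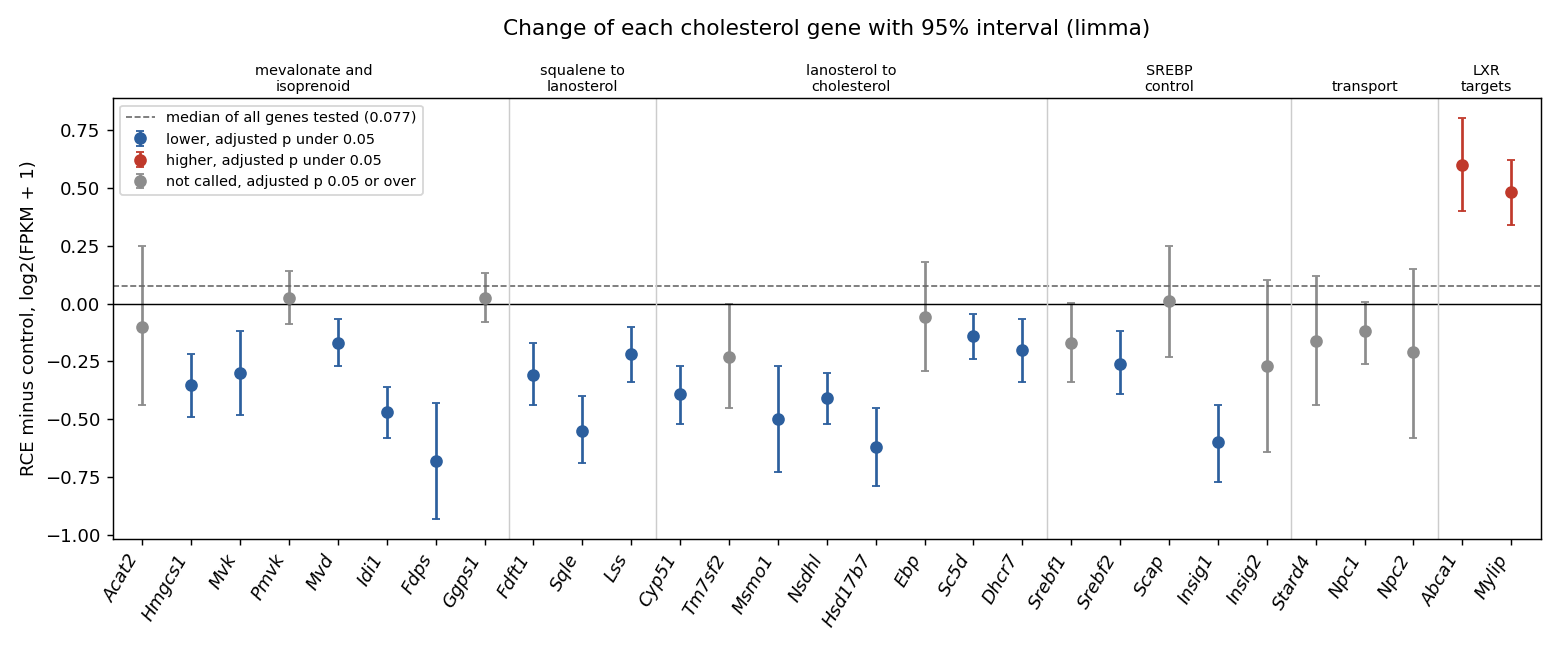
RCE minus control on the log2(FPKM + 1) scale for the 29 cholesterol genes tested, in pathway order, with the 95% interval of limma (n = 3 libraries a group); blue marks genes called lower, red those called higher and grey those not called at an adjusted p of 0.05. Fdps, at -0.68, was the lowest and Abca1, at 0.60, the highest, on either side of the median of all genes tested at 0.077 (dashed line).

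The label was checked against the data first. Slc7a11 lay between 0.007 and 0.017 FPKM in RCE libraries and between 0.013 and 0.037 FPKM in control libraries, with 1 fragment worth about 0.00184 to 0.00238 FPKM. All 10 fibroblast markers exceeded 1 FPKM in every library, and 2 of them were called lower. Their sum was 3820 to 3920 FPKM with RCE and 4140 to 4270 FPKM in control. Markers of epithelium (8 of 8) and liver (7 of 7) stayed under 1 FPKM in every library, as did 8 of 10 of macrophages and 6 of 8 of endothelium. The adipocyte list summed to 9.14 to 13.3 FPKM with RCE and 3.35 to 4.72 FPKM in control. Of its 8 genes 7 stayed under 1 FPKM, Cidec and Lep were at 0, and 1, Fabp4, led the sum. Skeletal muscle markers summed to 51.1 to 59.8 FPKM with RCE and 39.6 to 45.8 FPKM in control, led by Des, with Myod1 at 0. In the adipocyte list 1 marker was called higher with RCE, as was 1 in the skeletal muscle list, and 1 endothelial marker was called lower. The part of such cells in the changes below was not tested, and in bulk libraries fewer cells of a type and less RNA per cell cannot be told apart. Depth, read from the steps between low values, was 45650000 to 59000000 fragments a library. Nothing in the labels says that the libraries of a group are separate cultures, so p-values measure the spread between them only, which may be technical.

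The first steps of synthesis, up to the isoprenoid branch, were lower at 5 of 8 enzymes, where 6.77% of all genes tested were called lower. Hmgcs1 (ENSMUSG00000093930, chromosome 13, 119690379 to 119708260 on mm10), which joins acetyl-CoA to acetoacetyl-CoA and carries the sterol regulatory element shown above, had 13.3, 14.9 and 14.5 FPKM in RCE replicates 1 to 3, against 17.7, 18.5 and 19.0 FPKM in control replicates 1 to 3. Every RCE library lay below every control library, and the change was -0.35 (SE 0.057, adjusted p = 0.00778). Idi1 (ENSMUSG00000058258, chromosome 13, 8885501 to 8892451), which isomerises isopentenyl pyrophosphate, had 2.22, 2.25 and 2.15 FPKM with RCE, against 3.60, 3.24 and 3.51 FPKM in control. Its RCE libraries were nearly level with each other and all below control (-0.47, adjusted p = 0.00143), but 21.3% of the 50-base stretches of its longest transcript also occur in transcripts of other genes, pseudogenes among them, so its reads may be shared. Fdps (ENSMUSG00000059743, chromosome 3, 89093588 to 89101959), which makes farnesyl pyrophosphate, had 16.9, 20.0 and 21.4 FPKM with RCE, against 28.4, 34.0 and 32.7 FPKM in control. Replicate 1 was the lowest library in both groups, the groups did not overlap, and the mean was 19.4 ± 2.28 FPKM with RCE and 31.7 ± 2.95 FPKM in control (SD, n = 3 each). This fall, -0.68 (SE 0.10, adjusted p = 0.0065), is the most negative of the 29 members, and 26.7% of the exon bases of Fdps overlap the gene model Gm43738 on the same strand.

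The mevalonate kinase Mvk and the decarboxylase Mvd fell by less. Mvk averaged 5.64 ± 0.461 FPKM with RCE and 7.18 ± 0.557 FPKM in control (-0.30, adjusted p = 0.03). Mvd averaged 7.88 ± 0.194 FPKM with RCE and 9.0 ± 0.289 FPKM in control (-0.17, adjusted p = 0.0327). Their groups did not overlap, but both calls were lost on leaving out most single libraries. The call of Mvk held without RCE replicate 1 (adjusted p = 0.0309) and that of Mvd without control replicate 1 (adjusted p = 0.0397). For Mvk the adjusted p was 0.0577, 0.0773 and 0.062 on leaving out control replicates 1, 2 and 3 in turn, and 0.0808 and 0.0849 on leaving out RCE replicates 2 and 3. For Mvd it was 0.114 and 0.105 on leaving out control replicates 2 and 3, and 0.0647, 0.11 and 0.0868 on leaving out RCE replicates 1, 2 and 3.

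Pmvk, Ggps1 and Acat2 did not pass the threshold. Pmvk, the kinase between Mvk and Mvd in the pathway, had 3.93, 4.19 and 3.92 FPKM with RCE, against 3.75, 3.94 and 4.12 FPKM in control (interval of the change -0.09 to 0.14, adjusted p = 0.768). Its groups lay over each other. Ggps1, which extends farnesyl to geranylgeranyl pyrophosphate for protein prenylation and so lies off the route to cholesterol, had 14.6, 13.6 and 13.9 FPKM with RCE, against 13.9, 13.7 and 13.7 FPKM in control. The interval of its change was -0.078 to 0.13 (adjusted p = 0.719). The sign of Pmvk and Ggps1 turned with median-of-ratios scaling (-0.047 and -0.057) and quantile normalization (-0.079 and -0.027). Acat2, the cytosolic thiolase that opens the pathway, averaged 4.90 ± 0.895 FPKM with RCE and 5.29 ± 0.83 FPKM in control (interval -0.44 to 0.25). Its level is uncertain, since 45.9% of its 50-base stretches also occur in Acat3, a near copy.

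**Figure D2:**
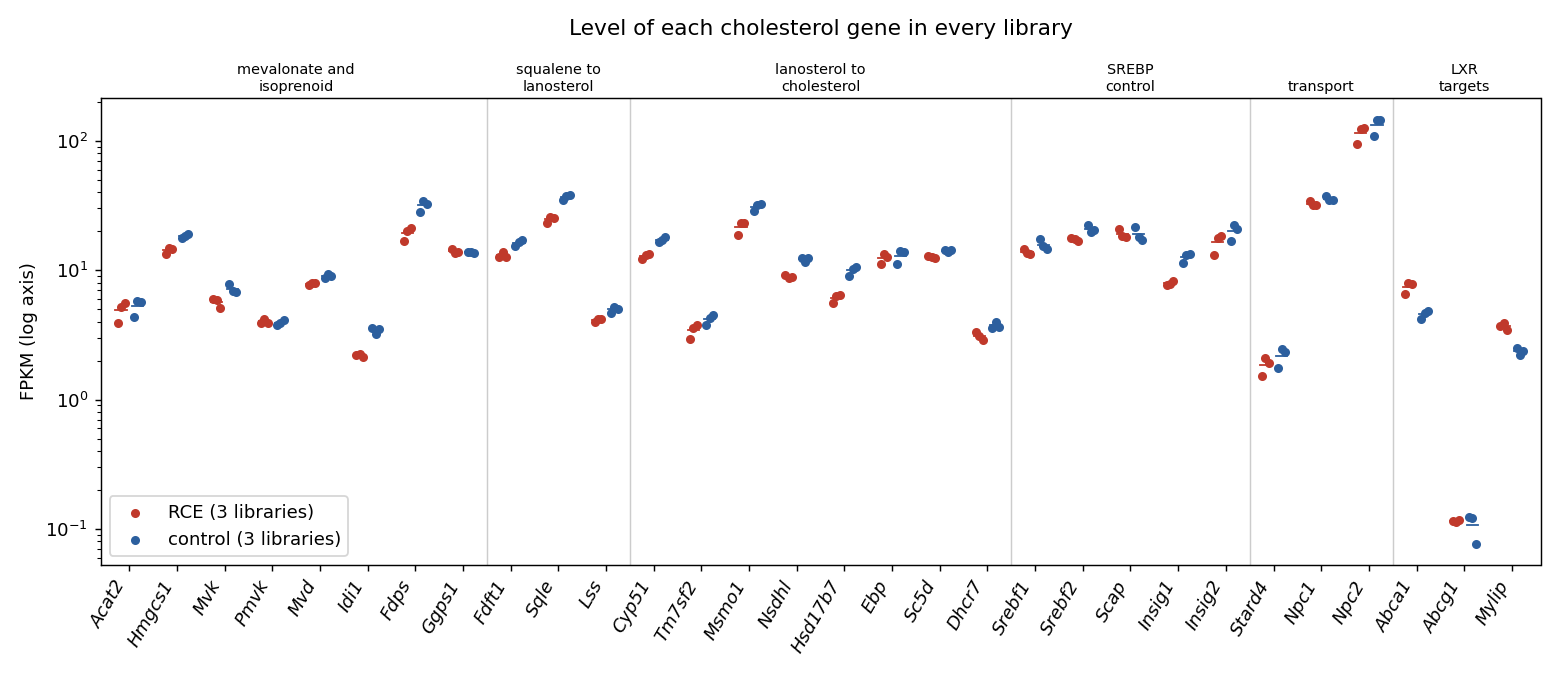
FPKM, on a log axis, of the 30 cholesterol genes in each library, RCE (red) left of control (blue), with a bar at the mean of 3 libraries. Npc2 had the highest level, with a mean of 115 FPKM in RCE libraries and 133 FPKM in control libraries, and Abcg1 the lowest, between 0.077 and 0.124 FPKM in every library.

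All 3 enzymes that lead from farnesyl pyrophosphate to lanosterol fell, where 6.77% of all genes tested were called lower. Sqle (ENSMUSG00000022351, chromosome 15, 59315077 to 59331192), the squalene epoxidase and a flux-controlling step, had 23.2, 26.0 and 25.2 FPKM with RCE, against 34.7, 37.4 and 38.0 FPKM in control. The highest RCE library was well under the lowest control library, and the change was -0.55 (SE 0.061, adjusted p = 0.0024). Fdft1, the squalene synthase, averaged 13.0 ± 0.605 FPKM with RCE and 16.3 ± 0.882 FPKM in control (-0.31, adjusted p = 0.0124). Lss, the lanosterol synthase, averaged 4.13 ± 0.139 FPKM with RCE and 4.98 ± 0.289 FPKM in control (-0.22, adjusted p = 0.0251). Neither gene overlapped between groups. The call of Fdft1 was lost when control replicate 2 (adjusted p = 0.0535), control replicate 3 (0.0517) or RCE replicate 3 (0.0534) was left out. The call of Lss was lost when any of these was left out (0.0886, 0.0912 and 0.0705 in the same order), and also on leaving out RCE replicate 1 (0.0502) or RCE replicate 2 (0.0843). In Fdft1, 18.3% of exon bases overlap Ctsb on the opposite strand, and the strand setting of the authors' counting is not given in the sources used here.

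Between lanosterol and cholesterol 6 of 8 enzymes fell, where 6.77% of all genes tested were called lower. Hsd17b7 (ENSMUSG00000026675, chromosome 1, 169949535 to 169969241), the keto-reductase of the C4 demethylation complex, whose promoter with 1 E-box is shown above, had 5.61, 6.33 and 6.39 FPKM with RCE, against 9.09, 10.3 and 10.5 FPKM in control. Its change was -0.62 (SE 0.071, adjusted p = 0.00267), and every RCE library was below every control library. The partners of Hsd17b7 in that complex fell too. Msmo1, the C4 methyl oxidase, had 18.8, 23.4 and 23.0 FPKM with RCE, against 28.6, 32.1 and 32.4 FPKM in control (-0.50, adjusted p = 0.0137). Nsdhl, the decarboxylating dehydrogenase, had 9.16, 8.65 and 8.88 FPKM with RCE, against 12.4, 11.6 and 12.5 FPKM in control (-0.41, adjusted p = 0.00264). Neither gene overlapped between groups, so all 3 members of the complex on the list were separated by group. Of all genes tested, 10.9% were separated in this direction. Cyp51, the lanosterol 14-alpha-demethylase, had 12.2, 13.1 and 13.2 FPKM with RCE, against 16.5, 17.2 and 17.9 FPKM in control (-0.39, adjusted p = 0.00419). The call of Msmo1 ended without control replicate 2 (adjusted p = 0.057) and control replicate 3 (adjusted p = 0.0579).

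The last steps moved less. Sc5d, the lathosterol desaturase, averaged 12.7 ± 0.237 FPKM with RCE and 14.2 ± 0.365 FPKM in control (-0.14, adjusted p = 0.047). Dhcr7, which turns 7-dehydrocholesterol into cholesterol, averaged 3.12 ± 0.225 FPKM with RCE and 3.74 ± 0.207 FPKM in control (-0.20, adjusted p = 0.0459). The groups did not overlap for either gene, yet both calls lay close to the threshold. For Sc5d the adjusted p on leaving out control replicates 1, 2 and 3 in turn was 0.102, 0.0872 and 0.151, and on leaving out RCE replicates 1, 2 and 3 it was 0.056, 0.16 and 0.158, so the call was lost each time. For Dhcr7 it was 0.0603, 0.14 and 0.108 for the control replicates, and 0.142 and 0.141 for RCE replicates 2 and 3, again with the call lost. Sc5d also lost its call with a minimum mean of 5 FPKM (adjusted p = 0.0535), and Dhcr7 with no low-value filter (adjusted p = 0.0768). Ebp, the sterol isomerase, had 11.2, 13.3 and 12.7 FPKM with RCE, against 11.2, 14.0 and 13.8 FPKM in control. Its groups overlapped, and the interval of its change was -0.29 to 0.18 (adjusted p = 0.714). Tm7sf2, a C14 sterol reductase, averaged 3.43 ± 0.458 FPKM with RCE and 4.18 ± 0.389 FPKM in control (-0.23, adjusted p = 0.128). It was lower in 3 of 3 pairs of same-numbered libraries and passed the threshold with replicate number as a block (adjusted p = 0.00104). That fit called 62.5% of all genes tested, 15.9% lower and 46.6% higher. Tm7sf2 also passed with quantile normalization (adjusted p = 0.049).

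Summed over the 19 enzymes, synthesis transcripts came to 185, 202 and 200 FPKM in RCE replicates 1 to 3, against 242, 262 and 264 FPKM in control replicates 1 to 3. The RCE mean was 0.763 of the control mean. The fall was not even along the pathway. Fdps, Sqle and Msmo1, the most abundant of the 19 in control, held 31.9, 34.3 and 34.8% of the sum with RCE, against 37.8, 39.5 and 39.0% in control. At the branch that sends farnesyl pyrophosphate to prenyl groups, the ratio of Fdps to Ggps1 within a library was 1.16, 1.47 and 1.54 with RCE, against 2.05, 2.47 and 2.39 in control. Such ratios do not depend on how a library is scaled, and those of the groups did not overlap. In both groups replicate 1 was most often the lowest library of an enzyme, for 11 of 19 with RCE and for 14 of 19 in control.

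**Figure D3:**
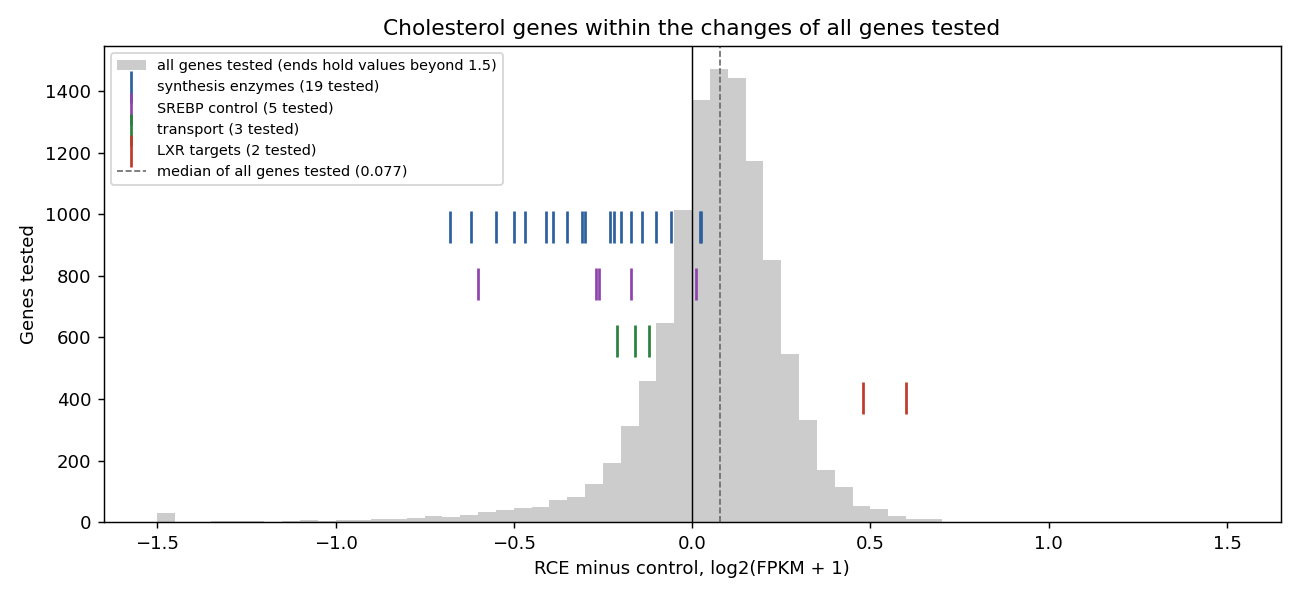
Histogram of RCE minus control on the log2(FPKM + 1) scale for the 10870 genes tested (grey, end bins hold values beyond 1.5 in size), with a tick for each cholesterol gene by role and a dashed line at the median of all genes, 0.077. Ticks of the 19 synthesis enzymes run from -0.68 to 0.025. Abca1 and Mylip, the LXR targets among the members that were tested, lie at 0.48 or above.

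Of the genes that control SREBP, Insig1 and Srebf2 fell. Insig1 (ENSMUSG00000045294, chromosome 5, 28071363 to 28078662), the retention protein that is itself an SREBP target and has 1 E-box in the promoter shown above, had 7.63, 7.87 and 8.24 FPKM with RCE, against 11.3, 13.2 and 13.3 FPKM in control. The RCE libraries lay in a narrow band below all control libraries, and the change was -0.60 (SE 0.07, adjusted p = 0.00283). Srebf2 (ENSMUSG00000022463, chromosome 15, 82147181 to 82205379), which encodes SREBP2, had 17.9, 17.3 and 16.9 FPKM with RCE, against 22.4, 19.9 and 20.4 FPKM in control. The groups were apart by a smaller margin (-0.26, SE 0.057, adjusted p = 0.0225), and the call ended without control replicate 3 (adjusted p = 0.0646), RCE replicate 2 (0.0898) and RCE replicate 3 (0.085).

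Srebf1, whose products SREBP1a and SREBP1c drive fatty acid genes more than cholesterol genes, had 14.6, 13.6 and 13.3 FPKM with RCE, against 17.3, 15.4 and 14.6 FPKM in control. RCE replicate 1 lay within the control range, and the change was not called (-0.17, adjusted p = 0.138), though it was with replicate number as a block (adjusted p = 0.0018). Insig2, the second retention protein, which is not an SREBP target, had 13.1, 17.8 and 18.5 FPKM with RCE, against 16.9, 22.3 and 20.9 FPKM in control. Replicate 1 was lowest in both groups, the groups overlapped, and the change was not called (-0.27, interval -0.64 to 0.10, adjusted p = 0.244). With the block it was (adjusted p = 0.000488), in a fit that called 15.9% of all genes tested lower. Scap, the escort, had 21.0, 18.3 and 18.1 FPKM with RCE, against 21.8, 18.1 and 17.2 FPKM in control. Its groups lay over each other, the interval was -0.23 to 0.25 (adjusted p = 0.946), and its sign turned with median-of-ratios scaling (-0.07) and quantile normalization (-0.019).

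Ratios of these genes were also taken within each library. Insig1 over Insig2 was 0.584, 0.443 and 0.445 with RCE, against 0.668, 0.591 and 0.636 in control. Srebf2 over Scap was 0.854, 0.944 and 0.933 with RCE, against 1.03, 1.10 and 1.19 in control. For both ratios every RCE library was below every control library, but for Insig1 over Insig2 the gap between RCE replicate 1 and control replicate 2 was smaller than the range of either group. Srebf1 over Srebf2 was 0.817, 0.79 and 0.788 with RCE, against 0.771, 0.772 and 0.713 in control, so these groups too were apart by less than their own ranges.

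**Figure D4:**
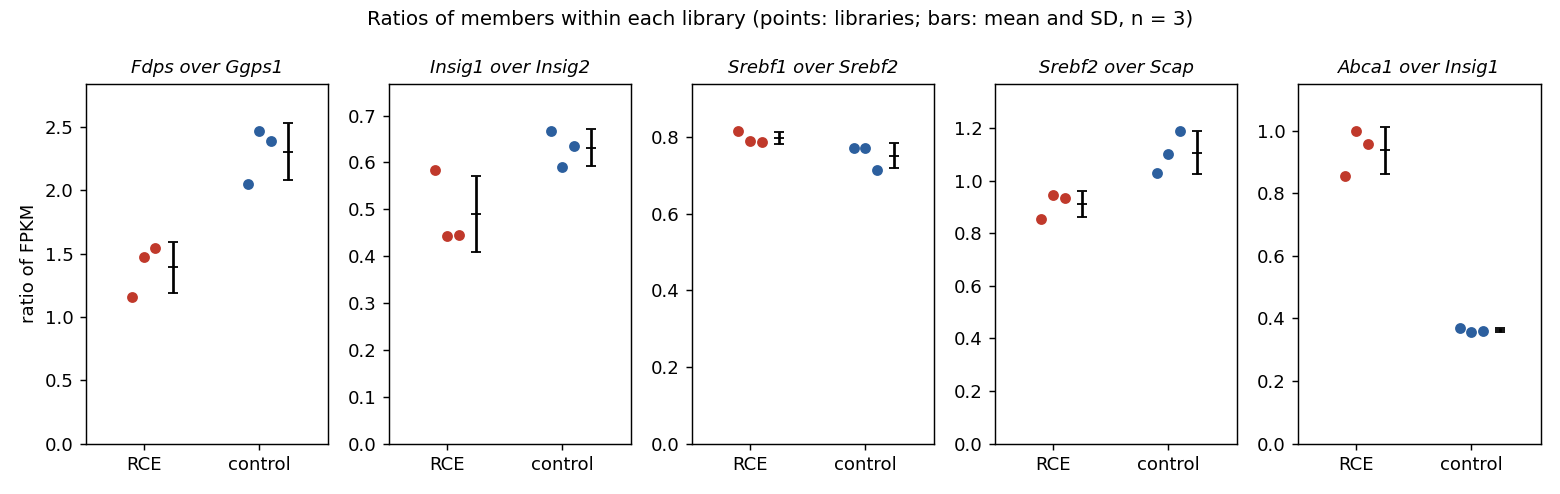
Ratio of the FPKM of pairs of members within each library, RCE (red) left of control (blue), with the mean and SD of 3 libraries in black. The RCE libraries lie below control for Fdps over Ggps1, Insig1 over Insig2 and Srebf2 over Scap, and above it for Srebf1 over Srebf2 and for Abca1 over Insig1 (0.854 to 1.00 with RCE, against 0.358 to 0.369 in control).

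The 3 genes that move cholesterol inside the cell were lower with RCE in every pair of same-numbered libraries, and none passed the threshold in the fit of all 6 libraries without the block. Npc2, the soluble lysosomal protein that binds cholesterol freed from lipoproteins, had 95.3, 123 and 125 FPKM with RCE, against 109, 144 and 146 FPKM in control. Npc1, the membrane protein that takes cholesterol from it, had 34.2, 31.7 and 32.1 FPKM with RCE, against 37.7, 34.8 and 34.6 FPKM in control. Stard4, a cytosolic sterol carrier, had 1.51, 2.10 and 1.93 FPKM with RCE, against 1.74, 2.47 and 2.34 FPKM in control. Replicate 1 differed from replicates 2 and 3 in the same direction in both groups for each of the 3, low for Npc2 and Stard4 and high for Npc1. Only Npc1 had groups that did not overlap. The changes were -0.21 for Npc2 (adjusted p = 0.353), -0.12 for Npc1 (adjusted p = 0.148) and -0.16 for Stard4 (adjusted p = 0.361). With replicate number as a block these were called lower (adjusted p = 0.000212, 0.00281 and 0.00817), where that fit called 62.5% of all genes tested, 15.9% lower and 46.6% higher. Over all members it called 22 lower and 2 higher. The 3 were also called lower without replicate 1 of both groups (adjusted p = 0.000903 for Npc2, 0.0128 for Npc1 and 0.022 for Stard4).

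Among the members, the LXR targets that were tested, Abca1 and Mylip, rose. Arl4c, an LXR target outside the members, fell and is given below. Abca1 (ENSMUSG00000015243, chromosome 4, 53030787 to 53159895), the transporter that loads cholesterol onto apolipoprotein A-I, had 6.51, 7.91 and 7.89 FPKM with RCE, against 4.16, 4.70 and 4.80 FPKM in control. All RCE libraries were above all control libraries, and the change was 0.60 (SE 0.084, adjusted p = 0.00511). Mylip (ENSMUSG00000038175, chromosome 13, 45389742 to 45412022), the ubiquitin ligase that marks lipoprotein receptors for degradation, had 3.74, 3.90 and 3.43 FPKM with RCE, against 2.51, 2.2 and 2.37 FPKM in control. Its groups did not overlap either (0.48, SE 0.057, adjusted p = 0.00301). Abcg1, the exporter that loads cholesterol onto high-density lipoprotein, was far below the filter, at 0.115, 0.114 and 0.117 FPKM with RCE, against 0.124, 0.121 and 0.077 FPKM in control, and was not tested. These values stand for about 31 to 39 fragments with RCE and 22 to 39 in control, and the means, 0.115 ± 0.00153 FPKM with RCE and 0.107 ± 0.0263 FPKM in control, differed by less than the spread of control. The ratio of Abca1 to Insig1 within a library, a target of LXR over a target of SREBP, was 0.854, 1.00 and 0.957 with RCE, against 0.369, 0.358 and 0.361 in control. The RCE mean of this ratio was 2.59 times the control mean. The ratio combines the rise of Abca1 and the fall of Insig1 given above, so it is no separate result.

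Outside the members, 53 other genes of cholesterol handling were in the table and 49 were tested. Of these 8 were lower and 4 higher, where 6.77% of all genes tested were called lower and 17.6% higher, with a median of -0.019, against 0.077 over all genes tested. The counts moved with the settings. They were 13 lower and 1 higher with median-of-ratios scaling, where 1082 and 913 of all 10870 genes tested were. With quantile normalization they were 8 and 1, where 857 and 785 of all genes were. With replicate number as a block they were 20 and 16, in a fit that called 15.9% of all genes lower and 46.6% higher. Without replicate 1 of both groups they were 16 and 15, where 13.6% and 40.1% of all genes were called. In the fit of all 6 libraries without the block, the part on oxysterols and LXR had 2 of 8 lower and 1 higher. Ch25h, which makes 25-hydroxycholesterol, an oxysterol that both holds back SREBP and activates LXR, had 16.4, 16.9 and 15.7 FPKM with RCE, against 32.0, 32.5 and 31.4 FPKM in control (-0.93, adjusted p = 0.000111). Its level with RCE was thus 0.511 of that in control, with little spread within either group. Cyp27a1, which makes 27-hydroxycholesterol, had 2.60, 2.52 and 2.52 FPKM with RCE, against 1.66, 1.40 and 1.69 FPKM in control (0.46, adjusted p = 0.00291). Arl4c, a small GTPase known as an LXR target in macrophages, had 15.7, 15.4 and 15.6 FPKM with RCE, against 21.8, 23.5 and 22.0 FPKM in control (-0.50, adjusted p = 0.00109), so its direction was opposite to that of Abca1 and Mylip. Soat1, which esterifies cholesterol for storage in droplets, had 19.9, 21.1 and 21.5 FPKM with RCE, against 27.4, 30.1 and 29.6 FPKM in control (-0.46, adjusted p = 0.00309).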

How the data were processed

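RNA taken with TRIzol was made into stranded messenger RNA libraries, per the labels' protocols. The authors deposited 1 FPKM value per gene and library. The file header names no unit. The submitters' processing notes name STAR 2.5.4, Cufflinks, Cuffdiff 2.2.1 and mm10, without roles. FPKM are shares of a library, so an abundant transcript lowers the others, and they are not counts. The 30 genes were matched by symbol, with none duplicated. Groups (RCE, n = 3, control, n = 3) were compared on log2(FPKM + 1) in limma 3.58.1, run in R 4.3.3, with the prior variance following intensity, for genes that averaged 1 FPKM or more. The fit was run on simulated data with independent noise in each library. Such data leave out the shared deviation of same-numbered libraries given below. Members and lists were chosen with earlier results of these data known. All members may be named, and of the other cholesterol genes up to 6 past the threshold with the smallest p. Not all of these are reported here. Same-numbered libraries deviated together from their group means across genes (correlations of 0.92, 0.62 and 0.68 for numbers 1, 2 and 3), so blocked values stand beside results whose call they change. Numbers 2 and 3 were not told apart, since the crossed correlations were higher (0.72 for RCE 2 with control 3, 0.77 for RCE 3 with control 2). At the depths given, 100% of 390 to 424 low values a library, of genes with 1 transcript, were whole fragments within 0.1, against 15.4 to 16.5% at other depths. Coordinates, exon overlap and shared sequence are from GENCODE M21, of the same build, and promoters from RefSeq. Alternatives were other pseudocounts, filters and scalings, no trend, the replicate block and leaving out libraries.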

Additional observations from a re-analysis of the deposited data

How the results depend on the processing

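The calls of Hmgcs1, Idi1, Fdps, Sqle, Cyp51, Nsdhl, Hsd17b7, Insig1, Abca1 and Mylip kept their direction and stayed past the threshold in each alternative that tested them. The count of members called lower was 12 to 17 with the other pseudocounts, filters and scalings and with no trend, against 16, and 22 with the replicate block, which ended no member's call and added 6. Leaving out 1 library in turn, it ran from 8 (control replicate 3) to 13 (control replicate 1 or RCE replicate 1). It was 9 when control replicate 2 was omitted, 10 for RCE replicate 2 and 9 for RCE replicate 3. The count called higher was 2 throughout, except 1 with a minimum mean of 5 FPKM, which Mylip does not reach. Over all genes, 1910 were higher and 736 lower, against 867 and 485 with a minimum mean of 5 FPKM and 5060 and 1730 with the replicate block. Median-of-ratios scaling gave 913 higher and 1082 lower (45.8% of calls higher, against 72.2%), quantile normalization 785 and 857 (47.8%), and leaving out replicate 1 of both groups 4364 and 1480. Omitting 1 library gave 685 to 2040 higher and 394 to 734 lower. Signs turned for members that were not called. With median-of-ratios scaling these were Pmvk (-0.047), Ggps1 (-0.057) and Scap (-0.07), and with quantile normalization the same genes (-0.079, -0.027 and -0.019). With 1 library omitted the changes ran from -0.21 to 0.031 for Acat2, -0.0051 to 0.05 for Pmvk, -0.0029 to 0.046 for Ggps1, -0.15 to 0.0067 for Ebp and -0.054 to 0.11 for Scap. The causes of these shifts were not tested. At this depth Abcg1, at 22 to 39 fragments a library, lay under the filter on low values.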
